A study of Mus musculus with 6 samples.

Results

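The Hox genes of the 4 clusters were taken as every gene whose symbol begins with Hoxa, Hoxb, Hoxc or Hoxd followed by a number. The array named 38 of them among 19937 genes, with 10 in Hoxa, 9 in Hoxb, 9 in Hoxc and 10 in Hoxd. Of these, 37 encode homeobox transcription factors, and 1, Hoxd3os1, is an opposite-strand transcript of the Hoxd cluster. Hoxb8 shares its probe set with Hoxb7, so no value was given to it. Where a gene had several probe sets, the brightest on average was used. Values are log2 expression values after RMA, so a difference of 1 is a doubling.

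RNA came from whole inguinal white fat, the subcutaneous pad of the groin, and each of the 6 arrays held a separate mouse. The ATF7 KO group comprised 3 males lacking the transcription factor Atf7 and the WT group 3 wild-type littermates. All were C57BL/6, aged 5 weeks, untreated, and bred from Atf7 heterozygous parents. Which segment of Atf7 the allele removes, and how it was made, is not stated in the sources used here. The series title names adipocyte differentiation and thermogenic genes as the study's subject.

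Hox proteins bind DNA through a homeodomain and assign cells a position along the body axis and the limbs. Within a cluster the genes are arranged by paralogue group, and the order on the chromosome matches the order of their expression domains, with low numbers in anterior and high numbers in posterior territories. Adult fat depots keep part of this positional pattern. Hoxc8, Hoxc9 and Hoxc10 are known as genes of subcutaneous fat, and Hoxc8 and Hoxc10 have been described as restraints on the conversion of white to beige adipocytes. The Hoxc cluster lies on the same chromosome as Atf7, whereas Hoxa, Hoxb and Hoxd lie on other chromosomes. Hoxc was therefore set beside the other clusters: for Hoxc, loss of Atf7 and whatever sequence is inherited with the allele cannot be told apart in this design.

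The clusters also carry microRNA genes, whose mature sequences are shown because one family sits in 3 of the clusters and is known to repress Hoxc8. The RefSeq sequences (GRCm38.p6) are written 5′ to 3′ with the seed, bases 2 to 8, in capitals. miR-196b comes from Hoxa, miR-196a from a copy in Hoxb and a copy in Hoxc, miR-10a from Hoxb, miR-10b from Hoxd and miR-615 from Hoxc.
miR-196a-5p: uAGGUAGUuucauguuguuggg
miR-196b-5p: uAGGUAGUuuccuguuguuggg
miR-10a-5p: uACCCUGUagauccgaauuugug
miR-10b-5p: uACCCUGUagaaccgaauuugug
miR-615-3p: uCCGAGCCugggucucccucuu
The miR-196 members share the seed AGGUAGU and differ by A12C, read from miR-196a to miR-196b and counted from 1 at the 5′ end. The miR-10 members share the seed ACCCUGU and differ by U12A, read from miR-10a to miR-10b. miR-615 shares its seed with neither family.

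The arrays gave no detection calls, so dim genes were set apart with a reference level. It was the 95th percentile of the mean values of 1027 olfactory receptor genes, at 5.94, and 13153 of all genes lay above it. Of the 37 homeobox genes, 24 lay above this level and 13 did not. Nearest to the limit were Hoxa2 (mean 5.91) below it and Hoxd9 (mean 6.10) above it, and Hoxd3os1 lay just below at 5.93. All 14 genes of paralogue groups 4 to 8 lay above it, as did 6 of 7 genes of groups 9 and 10 and 4 of 7 genes of groups 1 to 3. None of the 9 genes of groups 11 to 13 did, in any cluster. The inguinal tissue thus gave signal for central Hox genes and none above this level for the most posterior ones. Hoxa contributed 7 genes above the level, Hoxb 8, Hoxc 6 and Hoxd 3. The adipocyte identity of the tissue was checked on 11 measured adipocyte markers, including Adipoq, Plin1 and Lep, and all 11 lay above the level.

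Several whole-series facts bear on the Hox values. The Atf7 probe set with the larger change was 8.95, 9.20 and 9.07 in WT and 6.22, 6.53 and 6.49 in KO, a log2 difference of -2.66 with a limma adjusted p of 0.00658 over all probe sets, while the other Atf7 probe set differed by -0.17. Leaving out WT replicate 1 raised that adjusted p to 0.0745, and WT replicate 3 to 0.147. KO replicate 3 stood apart, with correlations of 0.969 to 0.981 to the other arrays across probe sets, against 0.984 to 0.990 among the rest. Its lymphocyte markers were also lowest. The lymphocyte score, the mean of 24 B cell and T cell markers after centring each gene, was 0.70, 0.55 and 0.81 in WT replicates 1 to 3 and -0.12, 0.67 and -2.60 in KO replicates 1 to 3. All 24 markers had a negative difference and 3, the T cell genes Bcl11b, Cd27 and Zap70, an unadjusted p under 0.05. No marker of these lists had a mean at or below the background level, but in KO replicate 3 the B cell genes Ms4a1 (4.58) and Cd79a (5.61) were below it. In bulk samples such as these, fewer cells of a type cannot be told apart from less RNA per cell. Hox results below are therefore also given for KO replicate 2, whose lymphocyte score was inside the WT range, and without KO replicate 3. The part of lymphocyte content in the Hox differences was not tested beyond these values and the covariate fits given below.

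No Hox gene passed adjustment over all genes in limma, and neither did any other gene (0% of 19937 called at an adjusted p under 0.05). In this test Atf7 was represented by its brighter probe set, which differed by -0.17. With the mean of probe sets or the lowest-mean probe set, 1 gene passed. The smallest adjusted p among the Hox genes was 0.622. At an unadjusted p under 0.05, 5 of 37 homeobox genes were higher in KO and 0 were lower, where 4.99% of all genes were higher and 2.48% lower. Those 5 were Hoxa5, Hoxb2, Hoxb3, Hoxc5 and Hoxc6, and all lay above the background level, where 6.17% of 13153 genes were higher and 2.9% lower at that p. The number was 3 if KO replicate 3 or WT replicate 3 was left out, 10 if KO replicate 2 was, and 2 after adjustment for the lymphocyte score. These 2 were Hoxb2 and Hoxc5. The count over all 19937 genes, in either direction, moved as well. It was 1489 with all arrays, 997 without KO replicate 3 and 789 without WT replicate 3. Without KO replicate 2 it was 3757, and after adjustment for the lymphocyte score 783.

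In sign, 28 of 37 homeobox genes were positive, against 53% of all genes. Of the 24 above the background level, 22 were positive, against 54.4% of all genes above it, and their median difference was 0.25 against 0.02 for all such genes. The 13 dim members were 6 positive and 7 negative, with a median of 0.00. Among the 24, the exceptions were Hoxb7 (-0.04) and Hoxd9 (-0.28). Without KO replicate 3, 20 of the 24 were positive, and 17 were after adjustment for the lymphocyte score. Groups did not overlap with KO above for 9 homeobox genes, where 7.96% of all genes did so, and with KO below for 1, where 5.97% did. Among the 24 brighter members these counts were 8 and 1, against 9.29% and 6.99% of all genes above the level.

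**Figure D1:**
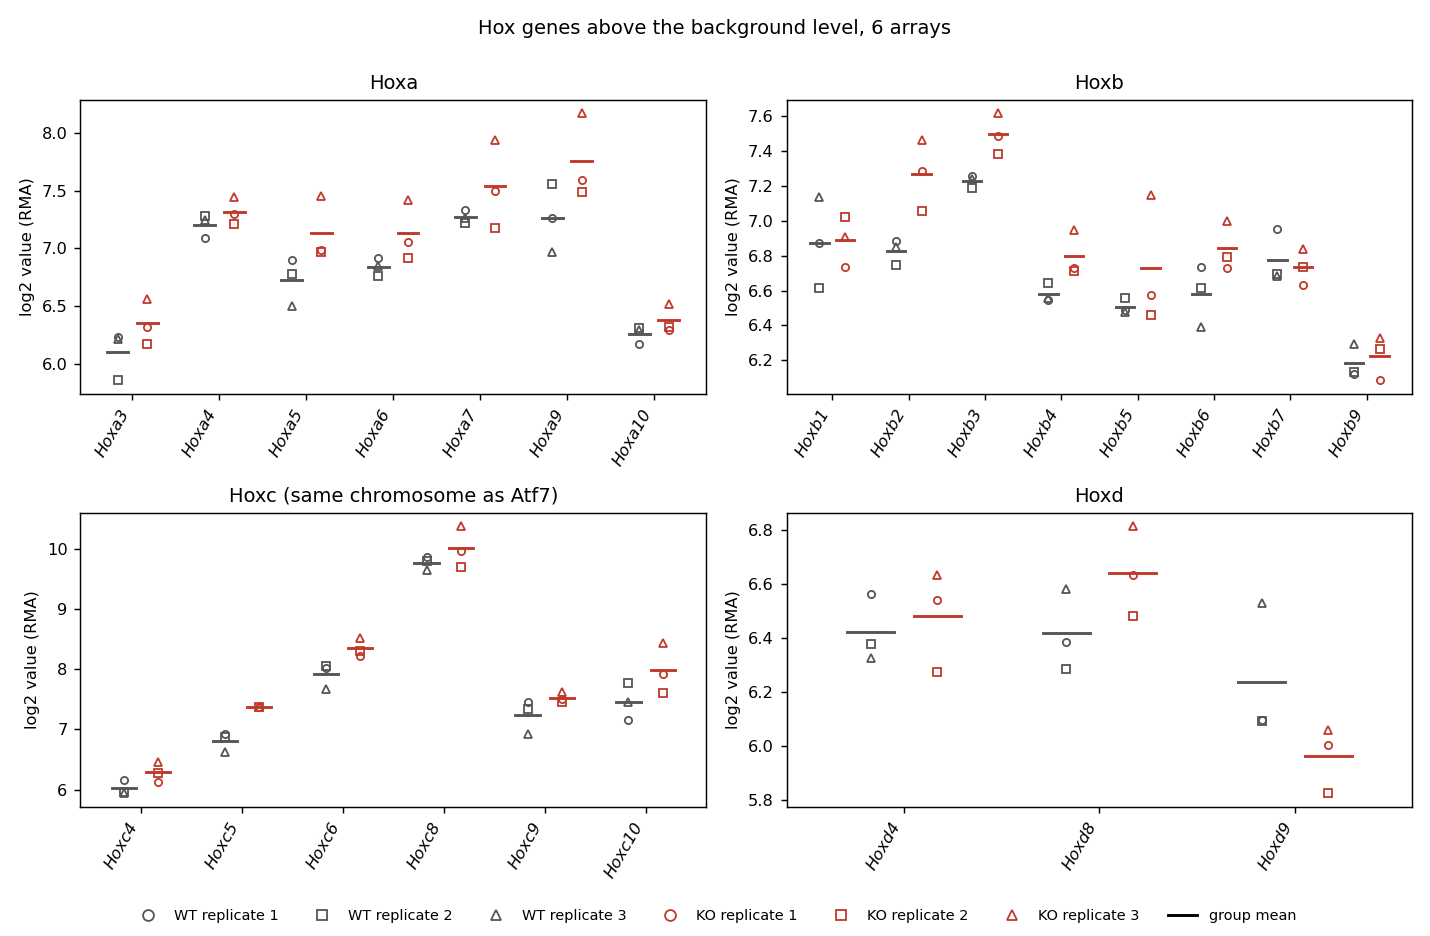
Log2 values of the 24 homeobox genes above the background level in each of the 6 arrays, by cluster, with WT in grey, KO in red, a symbol per replicate and a bar at each group mean. KO replicate 3 was the highest array for most genes, whereas Hoxc5 lay between 7.37 and 7.38 in all 3 KO arrays and Hoxd9 was lower in KO.

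In the Hoxc cluster all 6 genes above the background level were higher in KO, with differences from 0.24 to 0.57 and a median of 0.36. Hoxc5 and Hoxc6, neighbours of paralogue groups 5 and 6, had the smallest p of the cluster. Hoxc5 was 6.92, 6.88 and 6.62 in WT replicates 1 to 3 and 7.37, 7.38 and 7.37 in KO replicates 1 to 3. The groups were separated by more than their own spread, and the KO arrays were nearly identical to each other. The difference was 0.57 (SE 0.11, 95% interval 0.32 to 0.81), 1.48-fold, with an unadjusted p of 0.000987 in limma and an adjusted p of 0.622. It kept an unadjusted p under 0.05 in all 17 alternatives, with differences from 0.47 to 0.62. The probe set choices and leaving dim genes out used the same values of this gene.

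Hoxc6 was 8.03, 8.06 and 7.67 in WT and 8.22, 8.31 and 8.52 in KO, with no overlap between the groups. Its difference was 0.43 (SE 0.14), 1.35-fold, with an unadjusted p of 0.0164 in limma. After adjustment for the lymphocyte score the difference was 0.32 and the unadjusted p 0.0766, which was the only alternative in which it missed 0.05. WT replicate 3 was the lowest array for both Hoxc5 and Hoxc6.

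Hoxc8, Hoxc9 and Hoxc10, the genes best known from subcutaneous fat, were higher on average but did not reach an unadjusted p of 0.05. Hoxc8 was 9.87, 9.80 and 9.66 in WT and 9.97, 9.69 and 10.38 in KO, a difference of 0.24 (SE 0.17). KO replicate 2 lay inside the WT range. The difference was 0.06 if KO replicate 3 was left out and -0.03 after adjustment for the lymphocyte score, so its direction was not stable. Hoxc9 was 7.46, 7.35 and 6.93 in WT and 7.50, 7.46 and 7.62 in KO, a difference of 0.29 (SE 0.15). The groups did not overlap, but the lowest KO array and the highest WT array nearly met, and leaving out WT replicate 3 reduced the difference to 0.13. Hoxc10 was 7.16, 7.77 and 7.46 in WT and 7.92, 7.61 and 8.44 in KO, a difference of 0.53 (SE 0.24, 95% interval -0.04 to 1.09). Its difference was close to that of Hoxc5, but the spread within both groups was larger (SD 0.42 in KO and 0.30 in WT), and the groups overlapped through KO replicate 2. Leaving out KO replicate 3 reduced it to 0.30, and adjustment for the lymphocyte score to 0.18.

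Hoxc4, at the end of the cluster farthest from Atf7, was 6.17, 5.96 and 5.94 in WT and 6.12, 6.28 and 6.46 in KO, a difference of 0.27 (SE 0.12) with overlapping groups. The 3 posterior genes Hoxc11, Hoxc12 and Hoxc13, which lie nearest to Atf7, were at the background level and differed by -0.07, 0.02 and -0.09. They overlapped between the groups, and none reached an unadjusted p under 0.05 in the 16 alternatives that kept them (the nearest was Hoxc11 without WT replicate 2, at 0.0541). The Hoxc genes closest to the targeted locus were thus too dim for a difference to be read.

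The annotation lists 10 genes between Atf7 and Hoxc13, of which 3 had a value under their symbol, and none of these had an unadjusted p under 0.05. Atp5g2, a subunit of the mitochondrial ATP synthase, differed by 0.17 with KO above WT in every array (11.41 to 11.57 in WT and 11.59 to 11.74 in KO). Several probe sets carry this name and the brightest was used, so signal from copies of the gene elsewhere in the genome cannot be told apart from it. Calcoco1, a nuclear receptor coactivator, differed by 0.23, and the microRNA gene Mir688 by 0.07. On the other side of the cluster Smug1, a DNA repair glycosylase, and Cbx5, which encodes heterochromatin protein 1 alpha, differed by -0.03 and 0.03. Npff, beside Atf7 on the side away from Hoxc, was lower by 0.51 (SE 0.09, unadjusted p 0.000755 in limma). The genes between Atf7 and Hoxc13 were taken by their order, whereas Smug1, Cbx5 and Npff were named singly, with earlier results of these data known. These neighbours did not share a direction.

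In the Hoxa cluster all 7 genes above the background level were positive, from 0.11 to 0.49, with a median of 0.26. Hoxa5, a gene of paralogue group 5 that is known to be expressed in adipose tissue, was 6.90, 6.78 and 6.50 in WT and 6.99, 6.97 and 7.45 in KO. All KO values exceeded all WT values, with KO replicate 3 well above the rest. The difference was 0.41 (SE 0.17), 1.33-fold, with an unadjusted p of 0.0436 in limma. Leaving out KO replicate 3 gave a difference of 0.25 with p 0.109. Leaving out WT replicate 3 gave p 0.144 and WT replicate 2 p 0.0740. After adjustment for the lymphocyte score the difference was 0.19.

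Hoxa9, known from limb patterning and from blood progenitors, was 7.26, 7.56 and 6.96 in WT and 7.59, 7.49 and 8.17 in KO, a difference of 0.49 (SE 0.22). This was the largest difference in the cluster, but the groups overlapped, and it was 0.28 if KO replicate 3 was left out and 0.18 after adjustment for the lymphocyte score. Hoxa6 was 6.91, 6.76 and 6.85 in WT and 7.06, 6.91 and 7.42 in KO, a difference of 0.29 (SE 0.14), with KO replicate 2 level with WT replicate 1, and it was 0.14 if KO replicate 3 was left out. Hoxa3, Hoxa4, Hoxa7 and Hoxa10 differed by 0.25, 0.11, 0.26 and 0.12, all with overlapping groups. The dim members Hoxa2, Hoxa11 and Hoxa13 differed by -0.08 to 0.05.

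In the Hoxb cluster 7 of 8 genes above the background level were positive, with a median of 0.22. The 2 genes with the smallest p were the adjacent Hoxb2 and Hoxb3, anterior members known from hindbrain segmentation. Hoxb2 was 6.88, 6.75 and 6.85 in WT and 7.28, 7.05 and 7.46 in KO. The groups did not overlap and the WT arrays lay close together. The difference was 0.44 (SE 0.12, 95% interval 0.15 to 0.73), 1.36-fold, with an unadjusted p of 0.00839 in limma, and it stayed under 0.05 in all 17 alternatives (differences from 0.29 to 0.55).

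Hoxb3 was 7.26, 7.19 and 7.24 in WT and 7.48, 7.38 and 7.62 in KO, a difference of 0.27 (SE 0.09) with an unadjusted p of 0.0251. Again no WT value reached a KO value. Leaving out any single array except KO replicate 2 moved the p to between 0.0520 and 0.0747. Hoxb4 was 6.55, 6.64 and 6.56 in WT and 6.73, 6.71 and 6.95 in KO, a difference of 0.21 (SE 0.10) without overlap, which was 0.14 if KO replicate 3 was left out. From Hoxb5 on the differences became less regular, at 0.22 for Hoxb5, 0.26 for Hoxb6, -0.04 for Hoxb7 and 0.04 for Hoxb9, all with overlapping groups. Hoxb5 rested on KO replicate 3, at 7.14, against 6.46 to 6.57 in the other 5 arrays. Hoxb1, the most anterior gene measured in this cluster, differed by 0.01, and the dim Hoxb13 by 0.01. The probe set shared by Hoxb8 and Hoxb7 lay below the background level and differed by 0.10.

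The Hoxd cluster had the smallest median of the 4. Only Hoxd4, Hoxd8 and Hoxd9 lay above the background level, with differences of 0.06, 0.22 and -0.28 and a median of 0.06. Hoxd9 was 6.10, 6.09 and 6.53 in WT and 6.01, 5.82 and 6.06 in KO. It was the only homeobox gene with all KO values below all WT values, and its difference of -0.28 (SE 0.14) had an unadjusted p of 0.0966. Leaving out WT replicate 3, the high array, reduced it to -0.13. Hoxd8 was 6.38, 6.29 and 6.58 in WT and 6.63, 6.48 and 6.81 in KO, with overlap through KO replicate 2 and a difference of 0.14 if KO replicate 3 was left out. The dim Hoxd11 was 5.56, 5.60 and 5.59 in WT and 5.68, 5.66 and 5.89 in KO, a difference of 0.16 (SE 0.10) without overlap, which was 0.09 if KO replicate 3 was left out.

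Hoxd3os1, transcribed from the strand opposite to Hoxd3, was the remaining member with an unadjusted p under 0.05. It was 5.62, 5.83 and 5.83 in WT and 6.02, 5.95 and 6.32 in KO, a difference of 0.34 (SE 0.13, unadjusted p 0.0295 in limma) without overlap. Its second probe set differed by 0.08, so the probe sets of this transcript did not give the same size. Without KO replicate 3 its unadjusted p was 0.0767, and without WT replicate 1 it was 0.104. Hoxd3 on the other strand differed by 0.00 (SE 0.11).

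**Figure D2:**
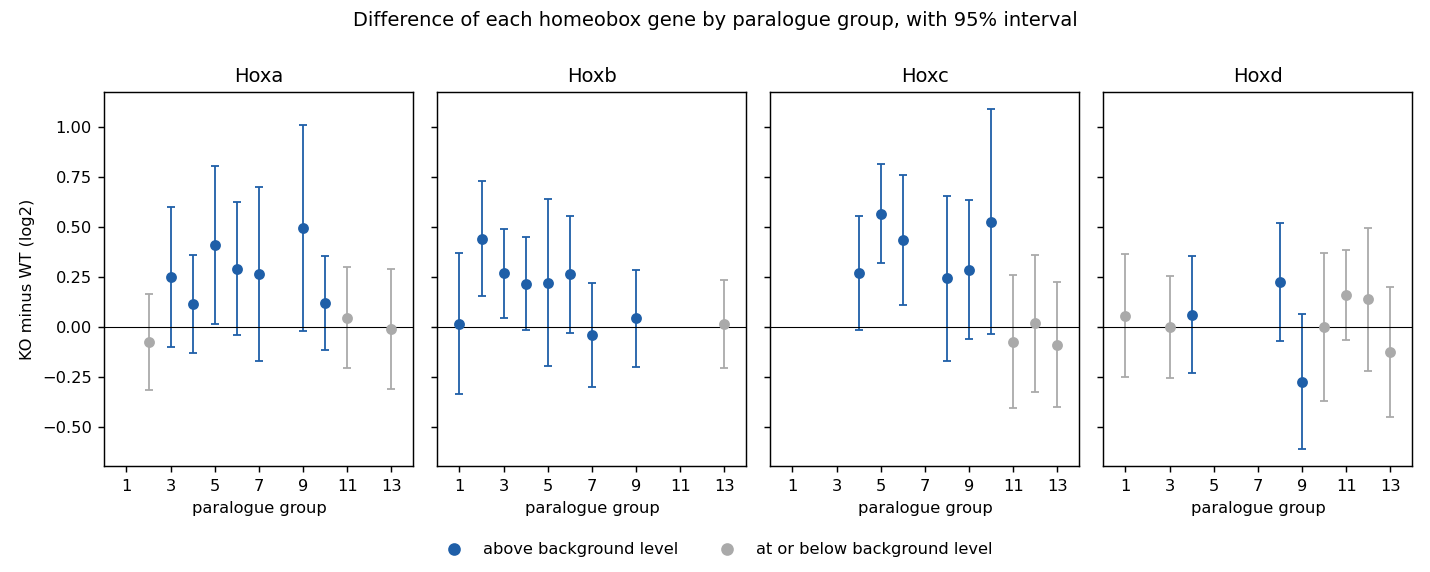
KO minus WT log2 difference of each of the 37 homeobox genes by paralogue group, with its 95% interval from limma, one panel per cluster, blue above the background level and grey at or below it. Intervals of Hoxa5, Hoxb2, Hoxb3, Hoxc5 and Hoxc6 lay above 0, and the genes of groups 11 to 13 lay around 0.

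The members were also ordered by paralogue group instead of by cluster. Groups 4 to 8 had a median of 0.25 with 13 of 14 genes positive and 3 at an unadjusted p under 0.05, namely Hoxa5, Hoxc5 and Hoxc6, against 53% positive and 4.99% higher among all genes. Groups 1 to 3 had a median of 0.05 with 5 of 7 positive, and Hoxb2 and Hoxb3 accounted for both of their genes under 0.05. Groups 9 and 10 had a median of 0.12 with 5 of 7 positive, and groups 11 to 13 a median of 0.01 with 5 of 9 positive. Within group 5, Hoxa5, Hoxb5 and Hoxc5 differed by 0.41, 0.22 and 0.57. Within group 9, Hoxa9, Hoxb9, Hoxc9 and Hoxd9 differed by 0.49, 0.04, 0.29 and -0.28, so the paralogues of group 9 did not share a direction.

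The Hoxc cluster was then set beside the 3 clusters on other chromosomes. Above the background level the 6 Hoxc genes had a median difference of 0.36 and the 18 genes of Hoxa, Hoxb and Hoxd 0.22, with 6 of 6 and 16 of 18 positive and 2 and 3 higher at an unadjusted p under 0.05. Of all genes above the level, 54.4% were positive and 6.17% higher. Because the members were chosen together and share the same 6 mice, this contrast between clusters is a description without a test. The level of a cluster on an array, its mean after centring each gene, was -0.13, -0.10 and -0.35 for Hoxc in WT and 0.12, 0.06 and 0.40 in KO. For Hoxa, Hoxb and Hoxd together it was -0.07, -0.13 and -0.09 in WT and 0.03, -0.04 and 0.29 in KO. In both sets the lowest KO level was above the highest WT level, narrowly so in the unlinked clusters.

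Each KO array was also set against the WT range, and in each the Hoxc share was above that of the unlinked clusters. In KO replicate 2, whose lymphocyte score was like that of WT, 4 of 6 Hoxc genes lay above all WT arrays (66.7%), against 7 of 18 unlinked genes (38.9%) and 23% of all genes above the background level. The median distance from the WT mean in that array was 0.24 for Hoxc, 0.07 for the unlinked genes and 0.00 for all genes above the level. In KO replicate 3, the array low in lymphocyte markers, 6 of 6 Hoxc genes and 15 of 18 unlinked genes lay above all WT arrays, against 41.6% of all genes above the level. In KO replicate 1 the counts were 5 of 6 and 11 of 18, against 31.4% of all genes above the level. The unlinked clusters were not alike. Hoxa alone was at 85.7%, 42.9% and 100% in KO replicates 1 to 3, against 83.3%, 66.7% and 100% for Hoxc. Hoxc was thus above Hoxa only in KO replicate 2, whereas Hoxb and Hoxd were below Hoxc in each KO array.

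The Hoxc level minus the level of the unlinked genes was 0.09, 0.10 and 0.11 in KO replicates 1 to 3 and -0.07, 0.03 and -0.26 in WT. Its SD was 0.01 among the KO mice and 0.15 among the WT mice, where replicate 3 was the lowest. Any part of lymphocyte content in this difference was not tested beyond the covariate fit given next. The median differences were 0.27 for Hoxc and 0.10 for the unlinked genes without KO replicate 3, and 0.27 and 0.20 without WT replicate 3. After adjustment for the lymphocyte score they were 0.19 and 0.06, and for the progenitor score 0.45 and 0.22. Hoxc had a larger median than the pooled unlinked genes under every one of the 17 alternatives run. Several of these could not move it. The probe set choices, leaving dim genes out, the replicate block and the variance model leave the differences of these genes unchanged. Against single clusters this did not hold throughout. Hoxa alone had a median of 0.26 with all arrays, and without WT replicate 3 its median was above that of Hoxc.

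**Figure D3:**
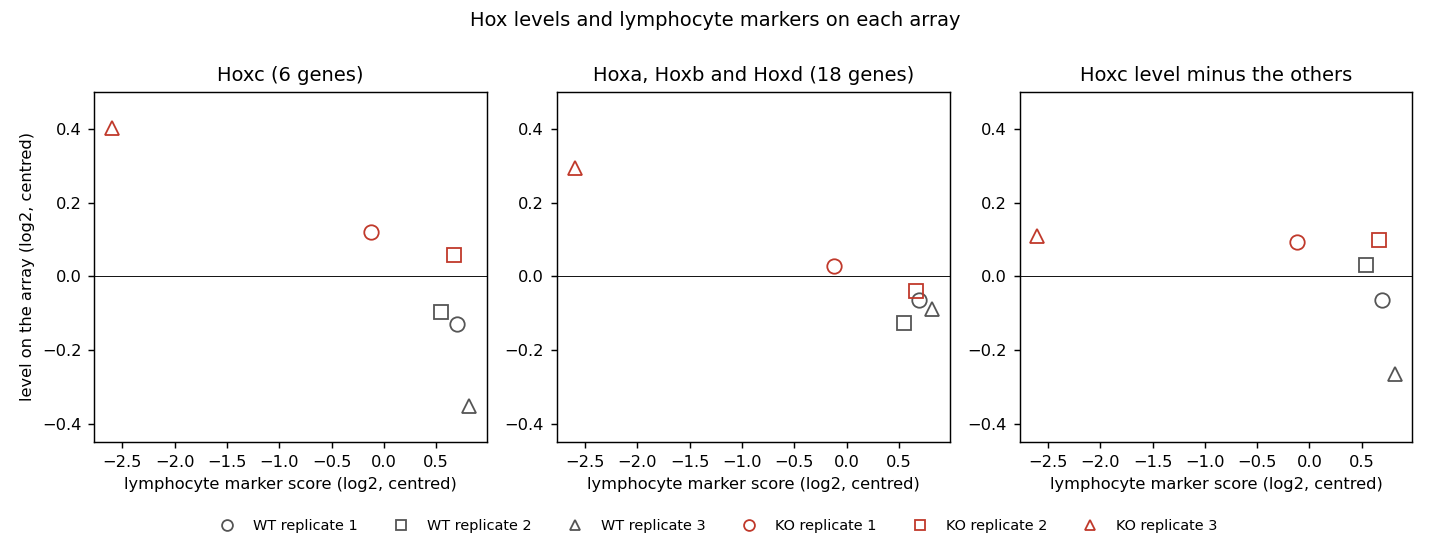
Centred level of the 6 Hoxc genes, of the 18 Hoxa, Hoxb and Hoxd genes, and their difference on each array (log2), against the lymphocyte marker score, with grey symbols for WT and red for KO. KO replicate 3 combined the lowest score (-2.60) with the highest level of both sets. The difference between the sets was 0.09 to 0.11 in KO and -0.26 to 0.03 in WT.

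Other cells of the depot were measured in the same way. The 16 measured markers of adipocyte progenitors, the stromal cells in which positional genes of fat are mainly studied, had a median difference of 0.15. Their levels overlapped (-0.19 to 0.14 in WT and -0.06 to 0.22 in KO). At an unadjusted p under 0.05, Anxa3 was higher by 0.45 and Icam1 and Thy1 lower by 0.55 and 0.52. Icam1 was 8.37, 8.84 and 7.93 and Thy1 9.82, 10.06 and 9.19 in KO replicates 1 to 3. Both were ordered like the lymphocyte score in these arrays, and both are part of the progenitor score. Any part of lymphocytes in them was not tested. The 11 adipocyte, 10 macrophage, 10 endothelial and 7 mesothelial markers had medians of 0.08, 0.18, 0.23 and -0.03, all with overlapping levels. Of the endothelial markers 9 of 10 were positive. Single markers at an unadjusted p under 0.05 were the endothelial receptor Tek (0.62, p 0.0120), the adipocyte gene Trarg1 (0.43, p 0.0227) and the mesothelial Lrrn4 described with the depot genes, each without overlap. The 5 nerve and Schwann cell markers were all positive, and their level did not overlap, at -0.16 to -0.10 in WT and 0.10 to 0.13 in KO. Singly, S100b (0.59) and Mbp (0.32) did not overlap between the groups, whereas Pmp22 (0.19), Ncmap (0.09) and Sox10 (0.02) did. Skeletal muscle markers were high in WT replicate 2 (2.09) and KO replicate 1 (1.36) and between -1.34 and 0.48 in the others. Epithelial markers were high only in WT replicate 2 (0.90), against -0.26 to -0.11 in the other 5 arrays. Adjusted for the muscle score, 3 homeobox genes reached an unadjusted p under 0.05 with KO higher. Adjusted for the progenitor score 8 were higher and 1 lower. The part of these cells in the Hox values was not otherwise tested.

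Genes that mark fat depots or body position outside the Hox clusters were read from 3 lists. Of 14 measured genes of the subcutaneous and limb field list, 12 were positive, 3 were higher and 0 lower at an unadjusted p under 0.05, where 53% of all genes were positive, 4.99% higher and 2.48% lower. The median was 0.20 against 0.01 for all genes. Tbx5, a T-box factor of the forelimb and heart field, was 6.38, 5.50 and 6.10 in WT and 7.34, 6.60 and 7.19 in KO. The groups were fully separated, with a difference of 1.05 (SE 0.27), 2.08-fold, and an unadjusted p of 0.00571 in limma. Tbx18, a T-box factor of mesenchymal and mural precursors, was 6.23, 6.24 and 6.10 in WT and 6.62, 6.62 and 7.04 in KO, a difference of 0.57 (SE 0.13, unadjusted p 0.00359). Both stayed under 0.05 in all 17 alternatives.

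Prrx1, a homeobox factor of limb and stromal mesenchyme, differed by 0.40 (SE 0.16, unadjusted p 0.0408 in limma), without overlap. Leaving out KO replicate 1 reduced it to 0.25, WT replicate 2 to 0.29 (unadjusted p 0.131), and without WT replicate 1 the p was 0.0754. The subcutaneous markers En1, Tbx15 and Shox2 differed by 0.18, 0.25 and 0.27 with unadjusted p-values of 0.0827, 0.161 and 0.174. En1 was 6.23, 6.12 and 6.27 in WT and 6.30, 6.42 and 6.46 in KO, without overlap, while Tbx15 and Shox2 overlapped between the groups. Shox2 was below the background level. No gene of this list passed adjustment over all genes.

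Of the 17 visceral and mesothelial genes, 7 were positive and 10 negative, with a median of -0.01, 1 higher and 0 lower at an unadjusted p under 0.05. That gene was Lrrn4, a mesothelial marker, at 6.39, 6.27 and 6.33 in WT and 6.72, 6.58 and 6.90 in KO, a difference of 0.41 (SE 0.11, unadjusted p 0.00660). Bnc1, another mesothelial factor, was dim and differed by -0.29, and the visceral factor Gata6 differed by 0.13, both with overlap. The 7 genes of the brown depot list had a median of -0.03. Zic1, a classical brown fat marker, was 5.09, 5.01 and 4.87 in WT and 4.93, 4.96 and 5.10 in KO, and Lhx8, another, differed by -0.08. Meox2, a homeobox factor of somite and vessel cells that is also on the list of other homeobox genes, was higher by 0.34 (SE 0.12, unadjusted p 0.0256). It was 0.22 (p 0.0571) if KO replicate 3 was left out and 0.19 after adjustment for the lymphocyte score, and leaving out WT replicate 1 or 2 gave p 0.0579 and 0.0747. Epsti1, at 6.85 in KO replicate 3 against 8.54 to 9.50 elsewhere, was lowest in the array with the lowest lymphocyte score.

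**Figure D4:**
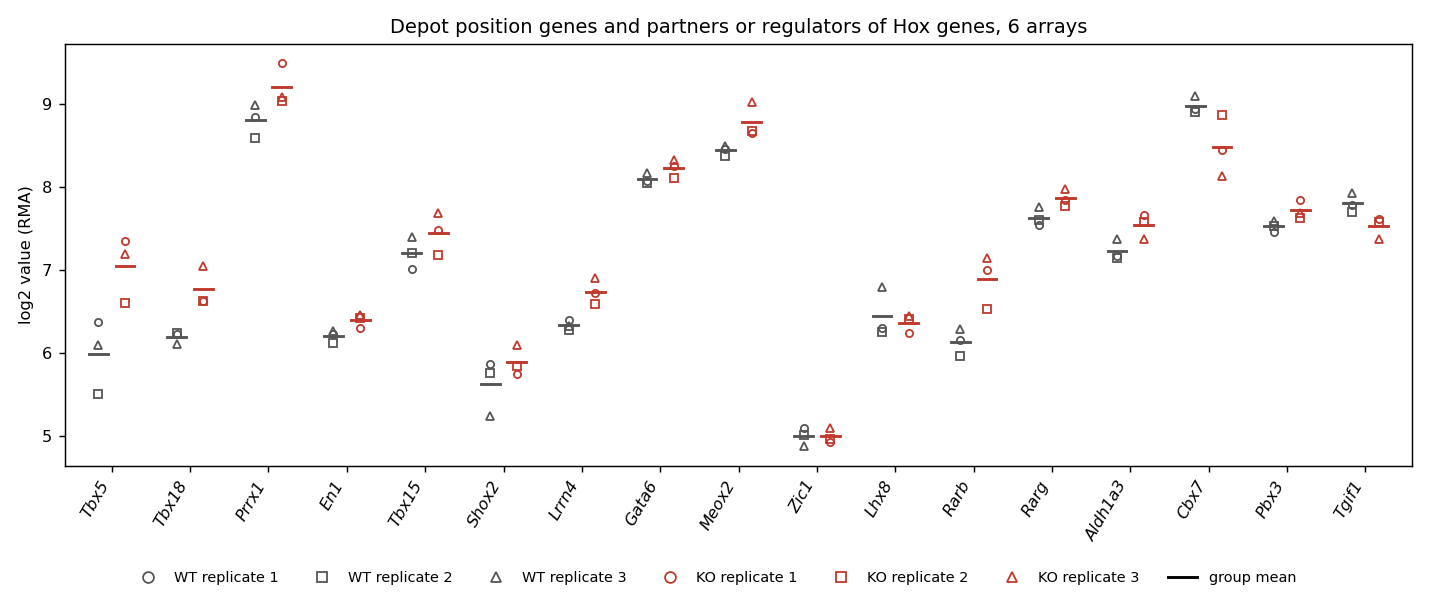
Log2 values of 17 depot position genes and Hox partners or regulators in the 6 arrays, with WT in grey, KO in red, a symbol per replicate and bars at group means. Tbx5, Tbx18 and Rarb show all KO values above all WT values, whereas Zic1 and Lhx8 overlap.

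Hox proteins bind DNA together with cofactors of the Pbx and Meis families. Of 11 measured cofactor genes, 4 were positive and 7 negative, with a median of -0.05, and 0 were higher and 1 lower at an unadjusted p under 0.05. Tgif1, a TALE homeobox repressor, differed by -0.28 (SE 0.11, unadjusted p 0.0367). It was -0.17 (p 0.166) after adjustment for the lymphocyte score, and leaving out WT replicate 1, WT replicate 3 or KO replicate 3 gave p 0.0770, 0.113 and 0.105. Pbx3 was 7.46, 7.53 and 7.59 in WT and 7.85, 7.63 and 7.69 in KO, a difference of 0.19 without overlap, while Meis2 (0.27) and Pknox2 (-0.17) overlapped. The cofactors had no common direction.

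Polycomb complexes keep Hox genes silent, and trithorax complexes keep them active. Of 29 Polycomb genes 13 were positive and 16 negative, with a median of -0.05 and 1 lower at an unadjusted p under 0.05. That was Cbx7, a chromodomain subunit of Polycomb repressive complex 1, at 8.94, 8.90 and 9.09 in WT and 8.45, 8.87 and 8.13 in KO (difference -0.50, SE 0.18, unadjusted p 0.0289). Its KO values were ordered like the lymphocyte score, lowest in KO replicate 3 and highest in KO replicate 2. Adjusted for that score the difference was -0.22 (p 0.124). It was -0.32 (p 0.0634) if KO replicate 3 was left out, and leaving out WT replicate 1, WT replicate 3 or KO replicate 1 gave p 0.0596, 0.0909 and 0.0737. Rybp and Jarid2, other Polycomb partners, differed by -0.24 each, and Pcgf6 by -0.23, with unadjusted p-values from 0.0625 to 0.108.

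Of 30 genes of trithorax complexes and of upstream activators of Hox genes, 11 were positive and 19 negative, with a median of -0.05 and 2 higher at an unadjusted p under 0.05, a share near the 4.99% of all genes. These were Rarb and Aldh1a3, and the genes named here are the 4 of lowest p on the list. Retinoic acid, known to induce Hox genes in the embryo, was not measured. Any part of it in the Hox differences was not tested. Rarb, a retinoic acid receptor that is itself induced by retinoic acid, was 6.15, 5.96 and 6.28 in WT and 6.999, 6.53 and 7.14 in KO. The groups were fully separated, with a difference of 0.76 (SE 0.17), 1.69-fold, and an unadjusted p of 0.00318 in limma that stayed under 0.05 in all 17 alternatives. Aldh1a3, an enzyme of retinoic acid synthesis, differed by 0.31 (SE 0.11, unadjusted p 0.0278), and the receptor Rarg by 0.23 (SE 0.10, unadjusted p 0.0545), both without overlap. Leaving out WT replicate 1 or 2 or KO replicate 1 or 2 gave Aldh1a3 a p from 0.0662 to 0.0987. Cyp26a1, which degrades retinoic acid, differed by 0.19 but was at 4.22 to 4.51, below the background level.

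Homeobox genes outside the Hox clusters were read as well. Of 36 measured, 17 were positive and 19 negative, with a median of -0.02, 4 higher and 1 lower at an unadjusted p under 0.05 (4.99% and 2.48% of all genes). Besides Meox2 these included Zfhx4, a zinc finger homeobox factor, higher by 0.45 (SE 0.14, unadjusted p 0.0155), the mesenchymal factor Msx1, higher by 0.27 (SE 0.09), and Tshz3, a teashirt factor known to act with Hox proteins, higher by 0.28 (SE 0.10). In these 3 no KO value was within the WT range. Zfhx4 missed 0.05 if KO replicate 1 was left out (p 0.0567), Msx1 if WT replicate 1 or 2 or KO replicate 1 was (p 0.0524 to 0.0747), and Tshz3 if WT replicate 2 or 3 or KO replicate 1 or 3 was (p 0.0608 to 0.0840). The lower gene was Hhex, a factor of blood and endothelial cells, by 0.42 (SE 0.18, unadjusted p 0.0472).

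The microRNA genes of the clusters were also read, a choice made after their values were seen. The Hoxc copy Mir196a-2 was 5.38, 5.09 and 5.49 in WT and 5.02, 5.46 and 6.08 in KO, and the Hoxb copy Mir196a-1 4.42, 4.18 and 4.39 and 3.92, 4.26 and 4.39, so both overlapped between the groups. Mir196b of Hoxa differed by 0.06, Mir615 of Hoxc by 0.02 and Mir10b of Hoxd by -0.06. Mir10a of Hoxb differed by 0.31 (SE 0.13, unadjusted p 0.0476 in limma over all probe sets), but at 2.97 to 3.61 it was far below the background level. These probe sets are annotated to the hairpin records, and values of the mature sequences shown above were not measured separately.

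Promoter sequence was examined because Atf7 belongs to the ATF and CREB factors, which bind the palindrome TGACGTCA and its core TGACG. In the RefSeq promoters (GRCm38.p6, 250 bases before to 50 bases after a start), 22 of the 38 members had an entry, including 1 of 9 Hoxc genes, Hoxc4. Both strands were searched, and every TGACGTCA also holds TGACG. The palindrome was in 0 of 27 Hox promoters and in 1.79% of all 32851 promoters. The core was in 7 of the 27, those of Hoxa5, Hoxa6, Hoxa11, Hoxb1, Hoxd3, Hoxd8 and Hoxd11, and in 20.8% of all promoters. The promoters of Hoxa5, the member under an unadjusted p of 0.05 that had an entry, and of Hoxc4 are shown 5′ to 3′ on the strand of the gene, with any core in capitals.
Hoxa5, chr6:52204538-52204837, minus strand: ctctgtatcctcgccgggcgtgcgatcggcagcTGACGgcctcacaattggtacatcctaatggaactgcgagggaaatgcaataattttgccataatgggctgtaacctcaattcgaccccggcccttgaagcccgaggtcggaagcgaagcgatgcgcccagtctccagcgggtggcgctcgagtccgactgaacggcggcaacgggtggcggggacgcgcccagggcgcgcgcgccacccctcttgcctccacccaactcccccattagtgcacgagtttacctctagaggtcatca
Hoxc4, chr15:103034145-103034444, plus strand: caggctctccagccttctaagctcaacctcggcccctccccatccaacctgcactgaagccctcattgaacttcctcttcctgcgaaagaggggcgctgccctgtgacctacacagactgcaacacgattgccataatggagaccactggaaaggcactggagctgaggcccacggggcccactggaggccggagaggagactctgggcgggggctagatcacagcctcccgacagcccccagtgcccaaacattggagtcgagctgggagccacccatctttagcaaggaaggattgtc
Hoxa5 held 1 core, on the strand of the gene, and Hoxc4 none. Binding was not measured in these data, and a match of letters is a description only.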

How the data were processed

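RNA from 6 mice was hybridised to 1 Affymetrix array each. The deposited table holds log2 values for 34760 probe sets; RMA, affy and limma are named, per the submitters' processing notes, without versions or the annotation build. Arrays normalized this way hide a shift shared by most genes, and 3 arrays per group limit the precision. Replicates are mice, per the series design text. The platform annotation named them: 21640 had 1 symbol, 1321 several and 11799 none. The last 2 kinds were left out of the gene tests. RefSeq held 19855 of the 19937 genes by Entrez identifier.

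KO was compared with WT by limma 3.58.1 under R 4.3.3 (lmFit, eBayes, two-sided) over all 19937 genes with Benjamini-Hochberg adjustment and no dim filter, and checked on simulated data. An exact permutation test of 3 against 3 cannot go below 0.1. The members and lists were chosen with earlier results of these data known. Values were named for Atf7, every Hoxc gene, other Hox genes at an unadjusted p under 0.05 or without overlap, the 2 largest differences per cluster, and, from each list, the 4 of lowest p, plus Tbx15, En1, Shox2, Zic1 and Lhx8. Other members, the genes beside the cluster and the microRNA genes are given for completeness. The 17 alternatives covered normalization, dim genes, probe set choice, each array left out, replicate block, variance model, array weights and 3 marker scores as covariates.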

Additional observations from a re-analysis of the deposited data

How the results depend on the processing

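Across 17 alternatives, 21 results (counts, medians and the Atf7 probe set) gave 348 values. Of these, 316 stayed within the limits set for them (1.5 times a count, 1 SD of a median, the side of 0.05 for Atf7), 28 counts or medians moved beyond them and 4 Atf7 values lost an adjusted p under 0.05. The 50 named genes gave 839 values, of which 722 kept direction and side of 0.05, 66 lost and 35 gained an unadjusted p under 0.05, and 16 changed sign. The causes were not tested. At an adjusted p under 0.05, 1 gene passed with the mean of probe sets and 1 with the lowest-mean probe set. The number of genes at an unadjusted p under 0.05 was 2944 with array weights, 783 adjusted for the lymphocyte score and 924 for the muscle score, and 758 to 3757 when single arrays were left out. Homeobox genes higher at that p numbered 2 adjusted for the lymphocyte score, 8 for the progenitor score (with 1 lower) and 3 for the muscle score, and 3 to 10 without single arrays, where 9 to 17 did not overlap with KO above. Leaving out an array makes separation of the groups easier for any gene. The counts of genes without overlap therefore cannot be set against the count with all arrays. Adjusted for the lymphocyte score, medians were 0.194 for Hoxc, 0.0837 for Hoxa, 0.0753 for Hoxb, 0.0633 for the unlinked clusters, 0.00568 for cofactors and 0.0209 for trithorax and activators. The cofactor median was -0.00319 adjusted for the progenitor score, the Polycomb median 0.00546 with the lowest-mean probe set, and the visceral median 0.0666 without dim genes. Without single arrays the Hoxb median ranged from 0.0742 to 0.271 and the cofactor median from -0.0952 to 0.0103. Signs changed for Hoxc8 (-0.0328 adjusted for lymphocytes), Hoxc12 (-0.0730 with array weights, -0.0292 adjusted for muscle), Eva1a (-0.0688 adjusted for lymphocytes) and Zic1 (-0.0625 with weights, -0.0676 adjusted for lymphocytes, -0.0232 for muscle). Without single arrays Hoxc11 ranged from -0.228 to 0.0204, Hoxc12 from -0.0881 to 0.146, Eva1a from -0.0152 to 0.223, Zic1 from -0.0574 to 0.0536 and Lhx8 from -0.185 to 0.0880. Atf7 differed by -2.69 adjusted for lymphocytes (limma adjusted p 0.107) and by -2.72 to -2.57 without single arrays. Replicate numbers were shared by the groups, but deviations of same-numbered arrays correlated at 0.00146, 0.0326 and 0.0436, so the numbers were not taken to pair the mice. With the replicate block Atf7 differed by -2.66 (limma adjusted p 0.0792) and 4 homeobox genes were higher at an unadjusted p under 0.05. Dim members carry little signal over background, which limits what could be seen for paralogue groups 11 to 13.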
